A study of Mus musculus with 3 samples.

Results

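The genes described here were ATF4, a set of genes that it activates when amino acids run short, and the kinases and phosphatase subunit that set its activity. They were chosen by symbol from knowledge of the pathway, leaving out serine and folate enzymes, tRNA synthetases and all amino acid transporters except Slc6a9. All 32 were among the 23282 deposited gene rows, and all 32 passed the filter on low reads that left 12770 rows for testing. The cells were CD4 T cells of C57BL/6 mice, taken from lymph nodes and spleen, stimulated with antibodies to CD3 and CD28 and grown for 72 h in each of 3 media. Complete medium (CM) was RPMI with serum. Dialyzed medium (DM) combined an RPMI base lacking amino acids with dialyzed serum, from which small molecules had been removed. DM+Met was DM with 30 µM of added methionine. The paper reports that DM itself still contained methionine, so the addition was not made to a medium free of it. All cells, controls included, were wild type and received both antibodies. How many mice contributed to a culture was not given in the sources used here, and each medium was represented by 2 sequenced libraries.

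ATF4 is a transcription factor of the basic leucine zipper class and the effector of the integrated stress response. When uncharged tRNA accumulates, the kinase GCN2 phosphorylates the initiation factor eIF2, general translation falls, and the Atf4 message is translated through its upstream open reading frames. ATF4 pairs with C/EBP proteins on composite C/EBP-ATF elements and turns on genes for amino acid synthesis and uptake, redox control and feedback inhibition. In activated T cells the same pathway also responds to growth signals through mTORC1. Because ATF4 is controlled mainly by translation, the level of its mRNA is not a measure of its protein.

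The composite element was located in the promoters that RefSeq gives for these genes on build GRCm38.p6. A promoter here is 250 bases before to 50 bases after an annotated start. Of the 32 genes, 30 had a promoter in the table, Fam129a under the symbol Niban1, and Eif4ebp1 and Klhl24 had none. The element TGATGNAAN, where N is any base, was searched on both strands and occurred in 10 of the 30 genes (33.3%), against 1215 of 27025 genes (4.5%) in the whole table. Those genes were Asns, Atf3, Chac1, Got1, Jdp2, Nupr1, Pck2, Pycr1, Trib3 and Vldlr. The stricter form TGATGCAA, which lies inside the longer motif, occurred in 7 of the 30 genes (23.3%) and in 1.03% of all genes. The cAMP response element TGACGTCA was found in 1 of them, Ppp1r15a, 12 to 5 bases before the start, and in 2.03% of all genes. Members were chosen as known ATF4 targets, so their share with an element describes the list and tests nothing.

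The windows below are shown because 2 of the genes, Got1 and Jdp2, differed between media and the other 4 did not pass the test. Each window runs 5′ to 3′ on the strand of its gene and ends before the RefSeq start, with the element in capitals. Where the element lies on the opposite strand, its capitals read as the reverse complement.
Got1, chr19:43524670-43524738, minus strand: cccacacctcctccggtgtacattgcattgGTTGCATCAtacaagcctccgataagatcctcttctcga
Jdp2, chr12:85599353-85599415, plus strand: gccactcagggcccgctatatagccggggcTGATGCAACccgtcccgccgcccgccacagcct
Atf3, chr1:191183406-191183474, minus strand: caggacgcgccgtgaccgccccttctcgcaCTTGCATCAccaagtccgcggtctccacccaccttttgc
Chac1, chr2:119351018-119351086, plus strand: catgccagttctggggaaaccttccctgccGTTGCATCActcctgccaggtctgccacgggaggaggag
Pck2, chr14:55540132-55540200, plus strand: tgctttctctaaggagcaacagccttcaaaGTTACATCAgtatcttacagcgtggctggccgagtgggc
Pycr1, chr11:120643813-120643881, minus strand: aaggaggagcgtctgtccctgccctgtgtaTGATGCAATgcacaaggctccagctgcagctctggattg
The element of Asns read TGATGAAAC and ended 15 bases before the RefSeq start. Among members with a promoter, the element was present in 3 of the 8 called in a comparison with CM and in 7 of the 22 not called.

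**Figure D1:**
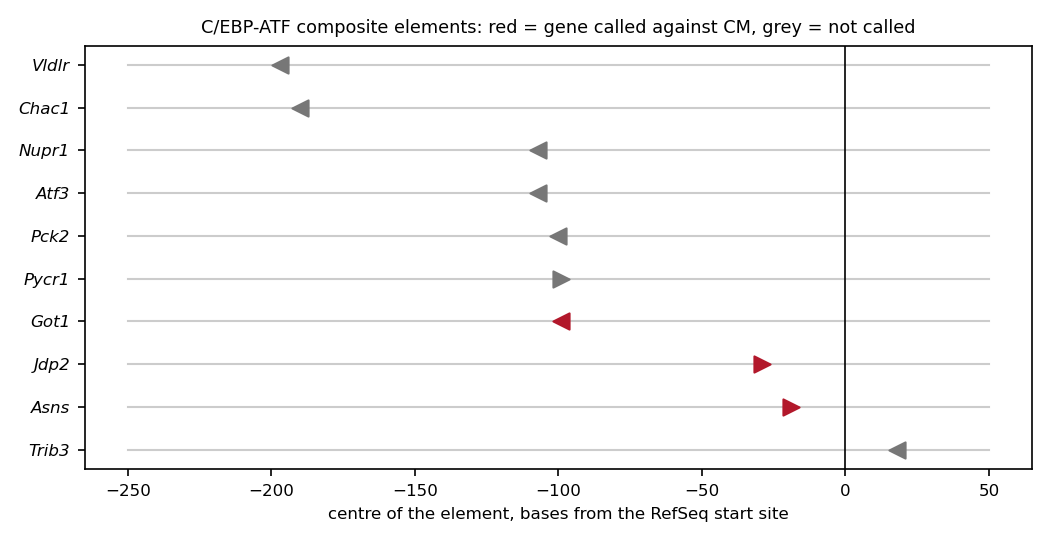
Position of the composite element TGATGNAAN in the 10 promoters that held it. The horizontal axis gives the distance in bases from the RefSeq start site, grey lines span the 300 bases searched, triangles point in the direction of the element, and red triangles mark genes called in a comparison with CM. The 3 red triangles belong to Got1, Jdp2 and Asns, and 9 of the 10 elements lie before the start.

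Levels are given as CPM, which are reads relative to a library size scaled by TMM to be common to all libraries, beside the reads themselves. The library kit reads transcripts near their 3′ end, so a level does not scale with transcript length. Changes are log2 differences on the deposited log2(CPM + 1) scale with a standard error (SE), a scale on which genes with few reads appear to change less than they did. A gene was called when its adjusted p in limma, over all 12770 rows and two-sided, was below 0.05. Depth ranged from 8504862 to 12377245 reads per library, and the upper limit allowed by a count of 0, which is 3 reads, came to a log2 value of 0.323 to 0.469. These limits cover counting error only. The ribosomal RNA precursor Rn45s took 31% to 32.9% of a CM library, 37.2% to 38.3% of a DM library and 15.5% to 20.1% of a DM+Met library. DM library 1 correlated at 0.919 with DM library 2 and at 0.925 and 0.921 with the DM+Met libraries across genes, so the DM libraries stood farther apart than the CM pair (0.938) or the DM+Met pair (0.973). The part of these differences in the results was not tested.

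The CD4 T cell label was matched by its markers. The summed level of 8 of them, Cd3d, Cd3e, Cd3g, Cd4, Cd28, Lck, Cd5 and Cd2, was 1885 and 2025 CPM in CM, 2257 to 2578 in DM and 2450 to 2466 in DM+Met. Of these 8, 3 were higher and 1 was lower in DM, where 7.8% and 9.07% of all rows were. Cd2 had 3921 and 4079 CM reads and 8260 to 11563 reads in the other 4 libraries, and the higher sums there were mainly the reads of Cd2. Summed CD8 T and NK markers were at 73.4 and 82.4 CPM in CM and at 35.9 to 49.8 CPM in the other 4 libraries. Cd8a was called lower in both, from 301 and 320 CM reads to 142 and 89 DM reads and 82 and 184 DM+Met reads. The NK gene Klrb1c went the other way, from 0 CM reads to 17 and 22 DM reads and 45 and 34 DM+Met reads, and was called in DM+Met. Summed B cell markers were at 103 and 87.6 CPM in CM, 79.9 and 81.8 CPM in DM and 58.5 and 68.9 CPM in DM+Met, with Cd22 called lower in DM+Met. The 11 myeloid markers summed to 52 and 60.6 CPM in CM, 124 and 168 CPM in DM, and 173 and 195 CPM in DM+Met. Mmp12, a macrophage elastase with 63 and 0 reads in CM and 828 to 1238 reads in the other libraries, was called higher in both other media, and Lyz2, the macrophage lysozyme, was called higher in DM. The other 9 markers of the list were not called in any comparison. Mmp12 had the most reads of the list in each DM and DM+Met library and so weighed most in the sums there. The higher sum in DM was mainly the reads of this gene, so it does not show a rise of the list as a whole. No other marker of the list had more than 363 reads in any library. Lyz2 had 3 and 15 CM reads, 77 and 85 DM reads and 50 and 50 DM+Met reads. Csf1r, the receptor for a macrophage growth factor, had 19 and 28 CM reads, 144 and 63 DM reads and 1 and 107 DM+Met reads. For Lyz2, Cebpa and Mmp12 all 4 libraries of dialyzed medium had more reads than either CM library. Cd68 had 92 and 54 CM reads, 130 and 112 DM reads and 222 and 203 DM+Met reads. Once scaled for library size, CM and DM overlapped for Cd68. Fcer1g had 115 to 140 reads in the CM and DM libraries and 281 and 363 in DM+Met. Tyrobp had 115 and 99 CM reads, 0 and 63 DM reads and 113 and 181 DM+Met reads, and Spi1 had 58 and 90 CM reads, 44 and 16 DM reads and 99 and 227 DM+Met reads. Cd14 had 5 to 38 reads per library. The defining markers Itgam and Adgre1 had 11 and 6 reads in CM library 1 and none in CM library 2, and at most 41 and 28 reads in any library. The part of these markers in the results below was not tested. In bulk RNA, fewer cells of a type and less RNA per cell cannot be told apart.

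In DM, 8 of the 32 genes changed against CM. Atf4 itself fell, together with Ddit4, Eif4ebp1, Asns, Got1, Lonp1 and Jdp2, and Atf5 rose. The 7 that fell were 21.9% of the members, where 9.07% of all tested rows were lower, and the 1 that rose was 3.12%, where 7.8% of all rows were higher. The median log2 change of the members was -0.38 against 0.066 for all rows, with 11 members above 0 and 21 below. Both DM libraries lay below both CM libraries for 14 members and above them for 6, and the libraries overlapped for 12. These were 43.8% and 18.8% of the members, where 26.2% of all rows lay below and 27.9% above. An unadjusted p below 0.05 was reached by 13 members (40.6%), where 32.7% of all rows reached it. The median stayed between -0.48 and -0.31 whichever library was left out. It was -0.35 with libraries scaled by total reads, where the median of all rows was 0.091.

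**Figure D2:**
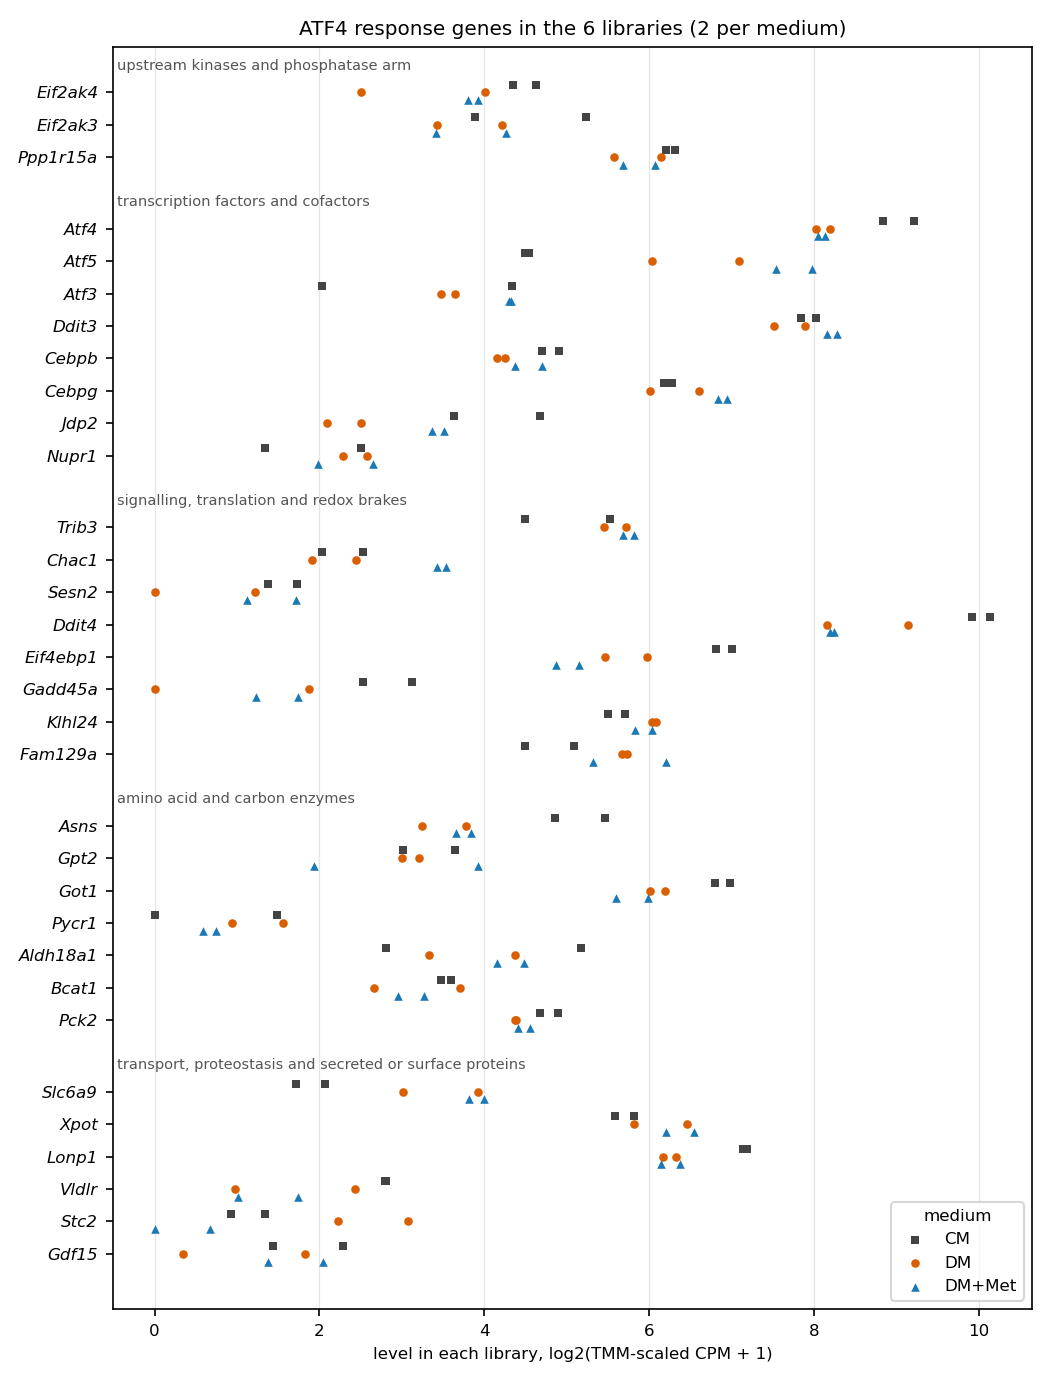
Level of the 32 ATF4 response genes in each of the 6 libraries, as log2(TMM-scaled CPM + 1), by role. Squares are CM, circles DM and triangles DM+Met, 2 libraries each, and a value at 0 is a library with no read. The CM squares of Atf4, Ddit4, Eif4ebp1, Asns, Got1 and Lonp1 lie above all other points of their rows, and those of Atf5 and Slc6a9 lie below.

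None of the 3 genes upstream of ATF4 was called in limma, and 1 of them had an unadjusted p below 0.05 in DM. Eif2ak4 encodes GCN2, the kinase that binds uncharged tRNA. It had 170 and 185 CM reads, 46 and 171 DM reads and 170 and 154 DM+Met reads, or 19.4 and 23.7 CPM, 4.69 and 15.1 CPM, and 14.2 and 12.9 CPM. Its log2 difference in DM was -1.23 (SE 0.51, adjusted p = 0.128). DM library 1 was the lowest of the 6. Without it the difference was -0.48, and without DM library 2 it was -1.98 and just passed the threshold. Eif2ak3 encodes PERK, the kinase that senses unfolded protein in the endoplasmic reticulum. Its counts were 321 and 108 CM reads, 96 and 199 DM reads and 219 and 116 DM+Met reads, and the 3 media overlapped. Ppp1r15a encodes GADD34, which returns the phosphatase PP1 to eIF2 and so ends the response. It had 686 and 568 CM reads, 456 and 786 DM reads and 789 and 600 DM+Met reads. In CPM its DM and DM+Met libraries were all below CM, by a log2 difference of -0.40 (SE 0.25) and -0.38 (SE 0.25), with adjusted p = 0.306 and 0.353. The DM difference of Ppp1r15a was -0.12 without DM library 1 and -0.69 with DM library 2 left out. The 3′ end of Ppp1r15a overlaps exons of Tulp2 on the opposite strand, whose reads cannot be told apart here.

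Among the transcription factors, Atf4 and Atf5 moved in opposite directions. Atf4 lies at chr15:80255184-80257541 on build GRCm38. It had 4024 and 4665 CM reads, 2548 and 3319 DM reads and 3340 and 3155 DM+Met reads, which is 458 and 597 CPM, 260 and 293 CPM, and 280 and 265 CPM. All 4 libraries of dialyzed medium were below both CM libraries, with a log2 change of -0.92 (SE 0.17, adjusted p = 0.00593) in DM and -0.94 (SE 0.17, adjusted p = 0.00499) in DM+Met. The mean level was 1.91-fold lower in DM and 1.94-fold lower in DM+Met. With methionine added to DM, the log2 difference of Atf4 was -0.019, with a 95% interval of -0.39 to 0.35. The DM change ranged from -1.11 to -0.73 over the fits that left out a library, and its adjusted p was 0.0631 without CM library 2, 0.077 without DM library 1 and 0.0556 without DM library 2.

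Atf5 encodes a close relative of ATF4 whose message carries similar upstream open reading frames and which activates mitochondrial chaperones and proteases. It lies at chr7:44812256-44816658. Its counts were 196 and 169 CM reads, 1330 and 726 DM reads and 2218 and 2999 DM+Met reads. In CPM these were 22.3 and 21.6, then 136 and 64.1, then 186 and 252. The 3 media did not overlap, in the order CM, DM and DM+Met. Its mean level was 4.54-fold higher in DM than in CM (log2 change 2.04, SE 0.32, adjusted p = 0.00324) and 9.95-fold higher in DM+Met (log2 change 3.24, SE 0.32, adjusted p = 0.000237). The step from DM to DM+Met was 2.19-fold, a log2 difference of 1.20 (95% interval 0.49 to 1.92), and did not pass adjustment (adjusted p = 0.288). The step was 1.74 without DM library 1 and 0.67 with DM library 2 left out. Leaving out DM library 1 gave a DM change of 1.50 and leaving out DM library 2 gave 2.57, and its adjusted p was 0.0595 or 0.0527 without a CM library.

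Jdp2, a repressor that binds ATF and AP-1 sites and recruits histone deacetylase, was lower in DM than in CM. It had 100 and 193 CM reads, 46 and 37 DM reads and 111 and 124 DM+Met reads, or 11.4 and 24.7 CPM, 4.69 and 3.27 CPM, and 9.3 and 10.4 CPM. The log2 change in DM was -1.86 (SE 0.52, adjusted p = 0.0355), a mean level 4.54-fold lower. Its log2 difference between DM+Met and DM was 1.14 (95% interval -0.013 to 2.29, adjusted p = 0.519). The call in DM was lost whichever single library was left out, with changes from -2.38 to -1.33.

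The other factors gave no call against CM. Ddit3 encodes CHOP, the C/EBP family member linked to death under prolonged stress. It had 2006 and 2013 CM reads, 2323 and 2066 DM reads and 3394 and 3679 DM+Met reads, or 228 and 258 CPM, 237 and 182 CPM, and 284 and 309 CPM. Both DM+Met libraries were the highest of the 6, yet the log2 difference from CM was 0.29 (SE 0.17, adjusted p = 0.301). The 3′ end of Ddit3 overlaps exons of Mars on the opposite strand, whose reads cannot be told apart here. Mars had similar counts, 1799 and 1916 CM reads, 2254 and 1914 DM reads and 3079 and 3303 DM+Met reads. The log2 difference from CM was -0.19 in DM and 0.25 in DM+Met for Mars, beside -0.22 and 0.29 for Ddit3. How much of the Ddit3 row comes from Mars was not tested. Atf3, a stress-induced factor that dampens ATF4 targets, had 27 and 150 CM reads, 100 and 131 DM reads and 229 and 223 DM+Met reads. The CM libraries of Atf3 lay at 3.08 and 19.2 CPM, so that its log2 difference in DM+Met was -0.018 without CM library 1 and 2.29 (adjusted p = 0.0365) without CM library 2. Cebpb, an activator that partners ATF4, had 256 and 195 CM reads, 177 and 190 DM reads and 235 and 297 DM+Met reads, with a log2 difference in DM of -0.60 (SE 0.32, adjusted p = 0.224). Cebpg, the C/EBP partner that lacks an activation domain of its own, was at 76.8 and 71.7 CPM in CM, 63.3 and 96.6 CPM in DM and 113 and 123 CPM in DM+Met. Its log2 difference of 0.66 (SE 0.23) between DM+Met and CM had an adjusted p of 0.0791. It was called in 3 of the 11 other settings of the processing. Nupr1, a small stress-induced chromatin cofactor, had 12 to 63 reads per library and overlapped in every comparison.

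**Figure D3:**
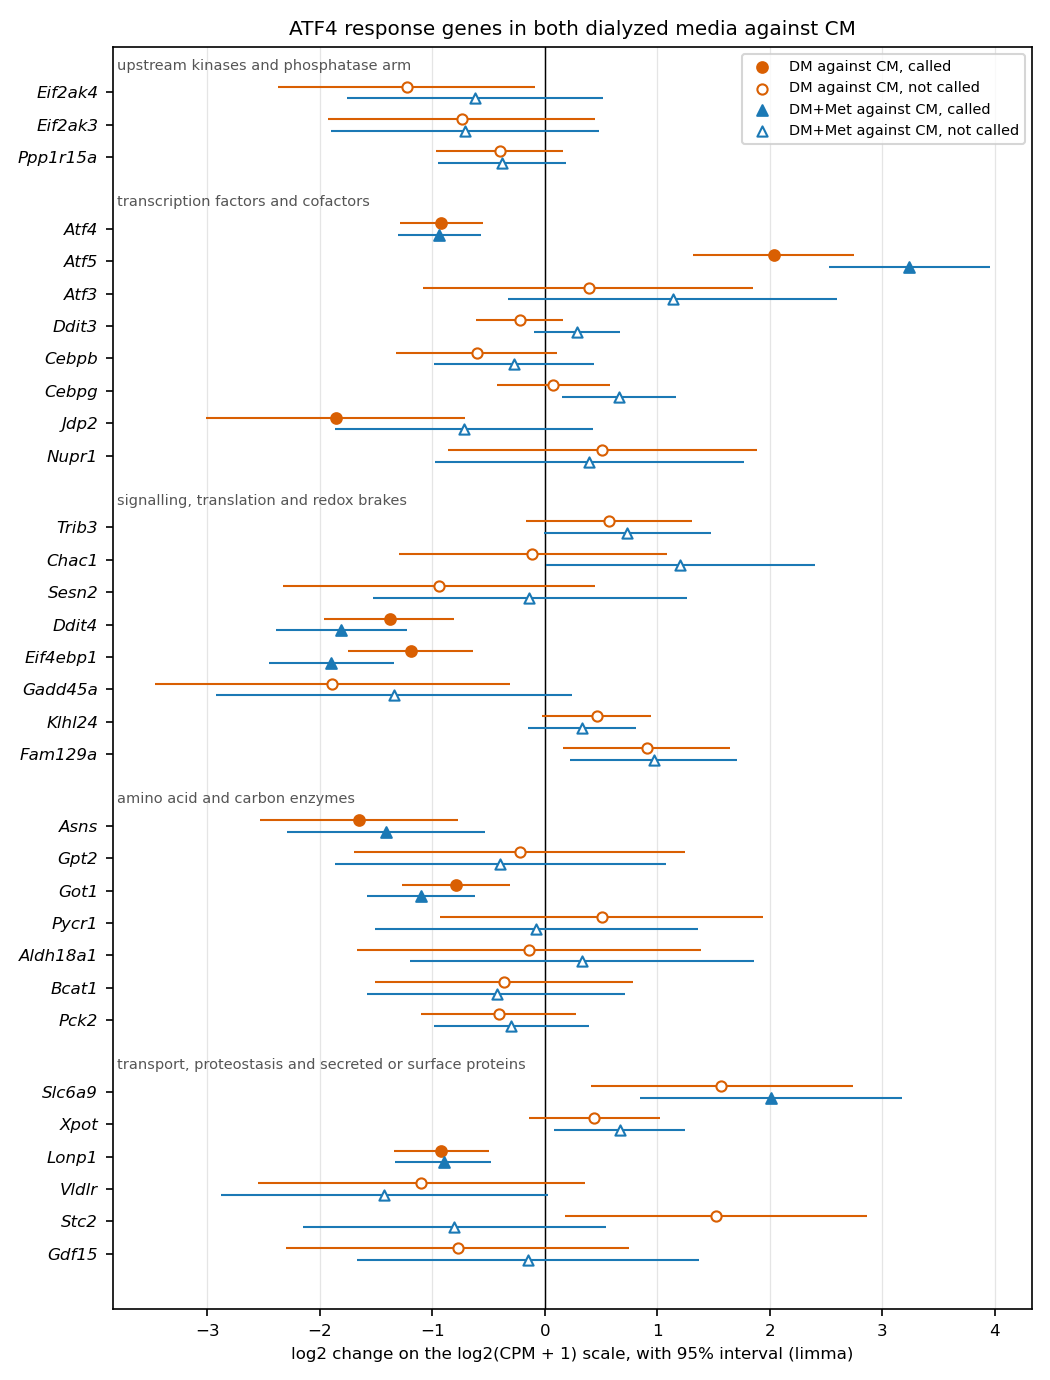
Log2 change of the 32 genes in DM (circles) and DM+Met (triangles) against CM, with 95% intervals from limma on 2 libraries per medium. Filled symbols passed an adjusted p of 0.05. The filled circles are Atf4, Atf5, Jdp2, Ddit4, Eif4ebp1, Asns, Got1 and Lonp1, the filled triangles add Slc6a9 and lack Jdp2, and only Atf5 and Slc6a9 lie to the right of 0 among them.

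The members that restrain growth signaling and translation included 2 of the called genes. Ddit4 encodes REDD1, which inhibits mTORC1 under stress and hypoxia, and lies at chr10:59949669-59951834. It had 8522 and 8833 CM reads, 5507 and 3240 DM reads and 3489 and 3618 DM+Met reads, or 970 and 1131 CPM, 562 and 286 CPM, and 292 and 304 CPM. All 4 libraries of dialyzed medium were below CM, and DM library 1 was the highest of those 4. The log2 change was -1.38 (SE 0.26, adjusted p = 0.00706) in DM and -1.81 (SE 0.26, adjusted p = 0.00168) in DM+Met. The DM change was -1.87 when DM library 1 was left out and -0.90 when DM library 2 was. Eif4ebp1 encodes 4E-BP1, which holds back the cap-binding factor eIF4E until mTORC1 phosphorylates it, and lies at chr8:27260329-27276674. It fell from 1122 and 868 CM reads to 608 and 487 DM reads and 413 and 337 DM+Met reads. In CPM these were 128 and 111, then 62 and 43, then 34.6 and 28.3, with no overlap between any media. Its mean level was 2.28-fold lower in DM (log2 change -1.19, SE 0.25, adjusted p = 0.0114) and 3.8-fold lower in DM+Met (log2 change -1.90, SE 0.25, adjusted p = 0.0011).

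Trib3 and Chac1, which are among the genes most responsive to ATF4 in other cells, were not called. Trib3 encodes a pseudokinase that binds AKT and ATF4 and feeds back on the response. Its counts were 397 and 169 CM reads, 419 and 585 DM reads and 663 and 598 DM+Met reads, and CM library 1 at 45.2 CPM lay within the DM range of 42.7 to 51.6 CPM. Its log2 difference was 0.57 (SE 0.33, adjusted p = 0.269) in DM and 0.73 (SE 0.33, adjusted p = 0.171) in DM+Met. Both rested on which CM library was used, being 1.08 and 1.25 without CM library 1 and 0.054 and 0.22 without CM library 2. Chac1 encodes an enzyme that degrades glutathione. It had 42 and 24 CM reads, 27 and 50 DM reads and 117 and 126 DM+Met reads, or 4.78 and 3.07 CPM, 2.75 and 4.42 CPM, and 9.8 and 10.6 CPM. CM and DM overlapped for Chac1, and both DM+Met libraries stood above the other 4.

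The rest of this group had few reads or smaller differences. Sesn2, a leucine sensor upstream of mTORC1, had 14 and 18 CM reads, 0 and 15 DM reads and 27 and 14 DM+Met reads, which allowed no call (adjusted p = 0.331 in DM). The log2 difference of Sesn2 in DM was -0.33 without DM library 1 and -1.55 with DM library 2 left out. Gadd45a, a growth arrest gene that p53 also controls, had 42 and 60 reads in CM and 0 to 30 in the other libraries, with a log2 difference in DM of -1.89 (SE 0.71, adjusted p = 0.0958) that was -0.96 without DM library 1. Fam129a, also called Niban1, was at 33.1 and 21.5 CPM in CM, 52.1 and 49.9 CPM in DM and 72.5 and 38.9 CPM in DM+Met. Its log2 difference was 0.91 (SE 0.33, adjusted p = 0.0911) in DM and 0.97 (SE 0.33, adjusted p = 0.0807) in DM+Met. Klhl24, a ubiquitin ligase adaptor, had 389 to 771 reads per library and a log2 difference in DM of 0.46 (SE 0.22, adjusted p = 0.173).

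Of the 7 enzymes, Asns and Got1 fell and the other 5 were not called. Asns encodes asparagine synthetase, which makes asparagine from aspartate and glutamine and is the classical target of the amino acid response. It lies at chr6:7675169-7693254. It had 379 and 219 CM reads, 83 and 144 DM reads and 139 and 159 DM+Met reads, or 43.2 and 28 CPM, 8.47 and 12.7 CPM, and 11.6 and 13.4 CPM. All 4 libraries of dialyzed medium were below both CM libraries. The mean was 3.36-fold lower in DM (log2 change -1.65, SE 0.39, adjusted p = 0.0202) and 2.85-fold lower in DM+Met (log2 change -1.41, SE 0.39, adjusted p = 0.0391). Leaving out any library kept the DM change between -1.95 and -1.35 and took the adjusted p to between 0.0511 and 0.127. The DM+Met call was held by 4 of 11 other settings of the processing.

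Got1 encodes the cytosolic aspartate aminotransferase, which supplies aspartate, the substrate of ASNS. It lies at chr19:43499752-43524605. It had 1101 and 863 CM reads, 706 and 717 DM reads and 746 and 566 DM+Met reads, which is 125 and 111 CPM, 72 and 63.3 CPM, and 62.5 and 47.5 CPM. The media did not overlap, and the log2 change was -0.79 (SE 0.22, adjusted p = 0.0323) in DM and -1.10 (SE 0.22, adjusted p = 0.00838) in DM+Met. No DM call of Got1 was left when any library was left out, with changes from -0.88 to -0.70. Pck2, the mitochondrial phosphoenolpyruvate carboxykinase, had 193 to 269 reads and a log2 difference in DM of -0.41 (SE 0.31, adjusted p = 0.396). Gpt2, Bcat1, Aldh18a1 and Pycr1, which serve alanine, branched-chain amino acid and proline metabolism, overlapped between CM and DM. Their reads ranged from 34 to 168, 52 to 136, 47 to 307 and 0 to 22. Aldh18a1 stood at 35 and 6.02 CPM in the CM libraries.

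The remaining members carry molecules, degrade proteins or act at or outside the cell surface. Lonp1 encodes the main protease of the mitochondrial matrix and lies at chr17:56614297-56626887. It had 1275 and 1093 CM reads, 694 and 897 DM reads and 986 and 827 DM+Met reads, or 145 and 140 CPM, 70.8 and 79.2 CPM, and 82.6 and 69.5 CPM. All 4 libraries of dialyzed medium were below CM, with a log2 change of -0.92 (SE 0.19, adjusted p = 0.0107) in DM and -0.90 (SE 0.19, adjusted p = 0.0112) in DM+Met. Slc6a9 encodes the glycine transporter GlyT1 and lies at chr4:117834506-117875198. Its counts were 20 and 25 CM reads, 69 and 161 DM reads and 155 and 179 DM+Met reads, or 2.28 and 3.2 CPM, 7.04 and 14.2 CPM, and 13 and 15 CPM. It was 5.11-fold higher in DM+Met than in CM (log2 change 2.01, SE 0.52, adjusted p = 0.0295). That call was held in 9 of 11 other settings of the processing and lost with no filter and by limma-voom on the reads. The change lay between 1.83 and 2.19 whichever library was left out. The log2 difference in DM was 1.57 (SE 0.52, adjusted p = 0.0659) and was called in 2 of 11 other settings.

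Xpot, the exporter of tRNA from the nucleus, had 369 to 1099 reads and a log2 difference of 0.67 (SE 0.26, adjusted p = 0.116) in DM+Met. The secreted and surface proteins were near the limit of this depth. Vldlr, a lipoprotein receptor, had 11 to 52 reads, and Gdf15, a secreted stress hormone, had 3 to 37. Stc2, a secreted glycoprotein, was set apart by DM, with 8 and 12 CM reads, 73 and 42 DM reads and 7 and 0 DM+Met reads. Its log2 difference in DM was 1.52 (SE 0.60, adjusted p = 0.111).

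In DM+Met against CM, a comparison that shares the CM libraries with the one above, 8 members were called. Atf4, Ddit4, Eif4ebp1, Asns, Got1 and Lonp1 were lower and Atf5 and Slc6a9 were higher. The 6 lower members were 18.8% of the list, where 8.36% of all rows were lower, and the 2 higher members were 6.25%, where 6.92% of all rows were higher. The median log2 change was -0.29 against 0.061 for all rows on the deposited TMM scale, but 0.07 against 0.41 when libraries were scaled by their total reads, so the sign of the members' median depends on the scaling. With library totals 12 members were called, 8 higher and 4 lower, and 76.3% of the calls over all genes were higher in place of 45.3%. Atf5, Slc6a9, Ddit3, Cebpg, Trib3, Klhl24, Fam129a and Xpot were the 8, and the calls of Asns and Lonp1 were lost. Under both scalings the members' median lay below that of all rows.

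Calls against CM were often lost when a single library was left out, and each such fit also had fewer libraries from which to estimate the spread. In DM against CM, Atf4 was the call left without CM library 1, none was left without CM library 2, and Atf5, Ddit4 and Eif4ebp1 were left without DM library 1. Without DM library 2, Atf5, Ddit4, Lonp1 and Eif2ak4 were called. Leaving out a DM+Met library, which only informs the spread, left Atf4, Atf5 and Lonp1, and Ddit4 in addition when that was DM+Met library 1. In DM+Met against CM, Atf5 was called whichever library was left out and Eif4ebp1 in all fits but that without DM+Met library 2. The directions of the called members held in every one of these fits.

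Methionine alone was addressed by DM+Met against DM. None of the 32 genes passed adjustment in limma, by limma-voom on the reads, or in any fit that left out a library. Over all rows 5 genes were higher (0.0392%) and 2 lower (0.0157%). An unadjusted p below 0.05 was reached by 6 members (18.8%), and by 1238 of 12770 rows (9.69%). Both DM+Met libraries lay above both DM libraries for 8 members (25%), where 20.4% of all rows did, and below them for 5 (15.6%), where 20.6% of all rows did. The 6 members were Atf5, Ddit3, Cebpg and Chac1 with positive differences and Eif4ebp1 and Stc2 with negative ones. The median log2 change of the members was 0.14, against 0.009 for all rows, with 21 members above 0 and 11 below. It was -0.025 without DM library 1. With library totals it was 0.49 against 0.34 for all rows.

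Among the transcription factors, for 6 of the 8, namely Atf5, Atf3, Ddit3, Cebpb, Cebpg and Jdp2, both DM+Met libraries were above both DM libraries, and Atf4 and Nupr1 overlapped. These 8 factors are a subset by role, and 20.4% of all rows had both DM+Met libraries above DM. The median log2 change of the 8 was 0.55. Ddit3 went from 237 and 182 CPM in DM to 284 and 309 CPM in DM+Met. Its log2 difference was 0.51 (95% interval 0.13 to 0.89, adjusted p = 0.39), and it was 0.70 without DM library 1 and 0.32 with DM library 2 left out. Mars, which overlaps Ddit3 on the opposite strand, differed by 0.44 (95% interval 0.024 to 0.85), so the Ddit3 row may hold reads of both. Cebpg differed by 0.59 (95% interval 0.079 to 1.09, adjusted p = 0.439), and by 0.29 or 0.89 when DM library 1 or 2 was left out. The mean level of Chac1 in DM+Met was 2.84 times that in DM, a log2 difference of 1.31 (95% interval 0.11 to 2.51, adjusted p = 0.468). For Eif4ebp1 the log2 difference was -0.70 (95% interval -1.26 to -0.15, adjusted p = 0.412), and it was -0.45 or -0.96 when DM library 1 or 2 was left out. Stc2 differed by -2.32 (95% interval -3.66 to -0.98, adjusted p = 0.288), from 73 and 42 reads to 7 and 0.

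The genes that were lower in DM than in CM were then read for a return toward CM with methionine. For Asns the log2 difference between DM+Met and DM was 0.24 (95% interval -0.64 to 1.12), against a fall of 1.65, so the interval leaves room for a partial return. It was -0.026 without DM library 1 and 0.51 with DM library 2 left out. For Jdp2 the difference was 1.14 (95% interval -0.013 to 2.29), against a fall of 1.86, so that both no return and a full return lie within its interval. It was 1.35 or 0.93 when DM library 1 or 2 was left out. For Lonp1 the difference was 0.017 (95% interval -0.40 to 0.44). The upper bounds of 0.44 for Lonp1 and 0.35 for Atf4 were smaller than the differences of 0.92 from CM. Those differences had 95% intervals of their own, -1.34 to -0.50 for Lonp1 and -1.29 to -0.55 for Atf4. Got1 differed by -0.30 (95% interval -0.78 to 0.18), and by -0.50 or -0.11 when DM+Met library 1 or 2 was left out. Ddit4 differed by -0.43 (95% interval -1.01 to 0.15), a value that DM library 1 decided, since it was 0.059 without that library and -0.91 with DM library 2 left out. Eif4ebp1, with its difference of -0.70, had both DM+Met libraries below both DM libraries. The comparison with CM and that with DM share the DM libraries, so a library that strays moves both. All these differences are on the deposited TMM scale. With libraries scaled by total reads, the differences of Atf4 and Got1 between DM+Met and DM changed sign.

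**Figure D4:**
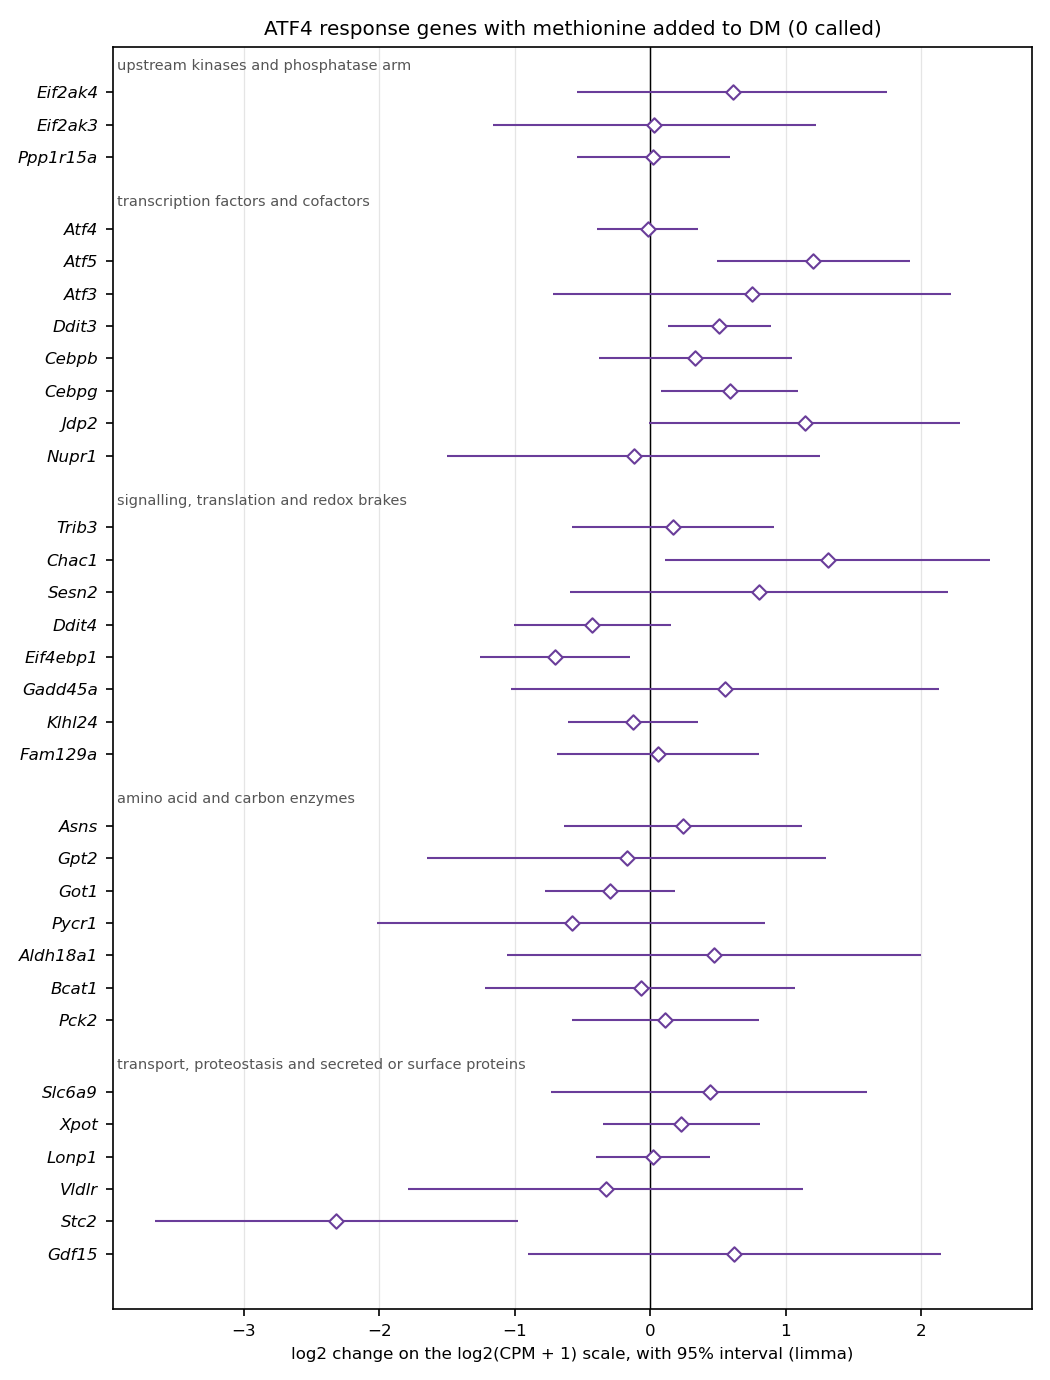
Log2 change of the 32 genes when methionine was added to DM, with 95% intervals from limma on 2 libraries per medium. All symbols are open because no member passed an adjusted p of 0.05, and the intervals of Atf5, Ddit3, Cebpg, Chac1, Eif4ebp1 and Stc2 do not cross 0.

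The neighbouring genes of the pathway were read from 6 other lists with 110 tested genes. Of these, 7 were higher and 20 lower in DM than in CM (6.36% and 18.2%), where 7.8% and 9.07% of all rows were. In DM+Met against CM, 9 were higher and 17 lower (8.18% and 15.5%), where 6.92% and 8.36% of all rows were. None passed between DM+Met and DM, where 14 (12.7%) had an unadjusted p below 0.05, beside 9.69% of all rows. The ATF4 targets outside the 32 genes, which are amino acid transporters, serine and folate enzymes and tRNA synthetases, had 2 of 27 higher and 4 lower in DM (7.41% and 14.8%). Slc7a1, the transporter of cationic amino acids, rose from 490 and 363 CM reads to 859 and 1214 DM reads and 1633 and 1494 DM+Met reads, with log2 changes of 0.91 (adjusted p = 0.0149) and 1.35 (adjusted p = 0.00215). Psat1, which makes phosphoserine, fell from 952 and 865 CM reads to 504 and 568 DM reads and 615 and 601 DM+Met reads, by 1.09 on the log2 scale in both (adjusted p = 0.00591 and 0.00563). Psph, the next enzyme of serine synthesis, was lower in DM+Met (log2 change -1.24, adjusted p = 0.0323). Slc7a11, the cystine transporter, had 32 and 0 CM reads, 33 and 66 DM reads and 79 and 93 DM+Met reads and was not called.

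**Figure D5:**
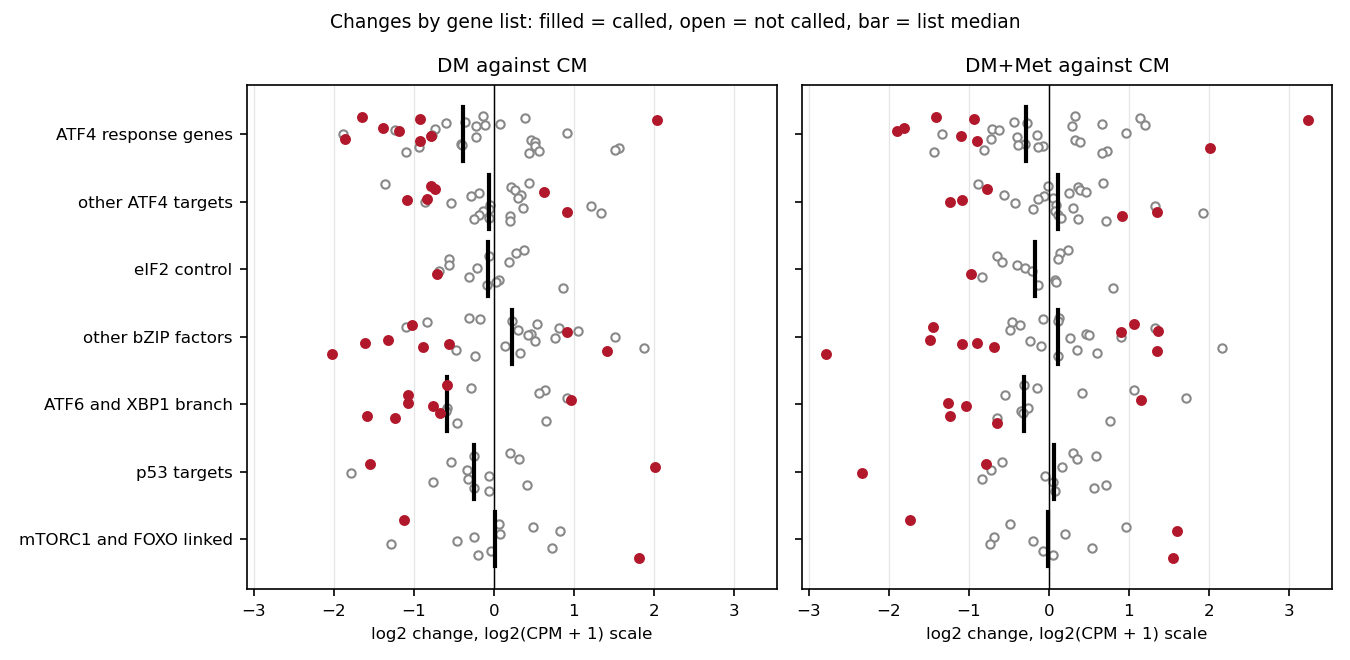
Log2 change of each tested gene in the ATF4 response list and 6 related lists, in DM (left) and DM+Met (right) against CM. Each point is a gene, filled points passed an adjusted p of 0.05 in limma, and black bars mark list medians. The bar of the ATF4 response genes lies at -0.38 and -0.29, and that of the ATF6 and XBP1 branch at -0.59 and -0.32.

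Of 14 genes that control eIF2 phosphorylation or form eIF2, 1 was called (7.14%), near the share of all rows that were lower. Eif2s2, the beta subunit of eIF2, fell from 10017 and 10232 CM reads to 8011 and 7780 DM reads and 7635 and 7208 DM+Met reads (log2 changes -0.71 and -0.97, adjusted p = 0.0109 and 0.00212). Among 27 tested factors that can pair with ATF4 or C/EBP proteins, a list that was mostly of basic leucine zipper factors, 2 were higher and 6 lower in DM. These were 7.41% and 22.2%, where 7.8% and 9.07% of all rows were higher and lower. In DM+Met against CM, 4 were higher and 6 lower (14.8% and 22.2%), where 6.92% and 8.36% of all rows were. Nfil3 fell most, from 1183 and 1530 CM reads to 612 and 279 DM reads and 262 and 283 DM+Met reads (log2 changes -2.02 and -2.78, adjusted p = 0.0075 and 0.00139). Jun, an AP-1 subunit, changed by -1.61 in DM (adjusted p = 0.00355) and -0.90 in DM+Met (adjusted p = 0.0426). Fosl2, its partner, changed by -1.32 (adjusted p = 0.00138) and -1.48 (adjusted p = 0.000549).

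The endoplasmic reticulum branches of the stress response that run through ATF6 and XBP1 had 1 of 16 genes higher and 7 lower in DM. These were 6.25% and 43.8%, where 7.8% and 9.07% of all rows were higher and lower. In DM+Met against CM, 1 was higher and 4 lower (6.25% and 25%), where 6.92% and 8.36% of all rows were. Hspa5, the chaperone BiP, changed by -0.76 in DM and -1.03 in DM+Met (adjusted p = 0.00675 and 0.00129). Hsp90b1, the chaperone GRP94, changed by -1.07 and -1.26 (adjusted p = 0.00196 and 0.000663). Pdia6, a disulfide isomerase, changed by -1.59 and -1.23 (adjusted p = 0.0027 and 0.00838). Sdf2l1, a cofactor of BiP, changed by -1.24 in DM (adjusted p = 0.0227).

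Of 15 p53 targets, 1 was higher and 1 lower in DM (6.67% each), near the 7.8% and 9.07% of all rows. In DM+Met against CM, none was higher and 2 were lower (13.3%), where 8.36% of all rows were lower. Cdkn1a, which encodes the cell cycle inhibitor p21, fell from 4209 and 4883 reads in CM to 1782 and 2177 in DM and stood at 3705 and 3831 in DM+Met (log2 changes -1.55 and -0.79, adjusted p = 0.000471 and 0.0103). Eda2r had no CM read, 42 and 24 DM reads and 3 and 0 DM+Met reads (adjusted p = 0.035 in DM). Perp had 48 and 33 reads in CM and at most 21 in any other library (adjusted p = 0.0384 in DM+Met). Among 12 tested mTORC1 and FOXO linked genes, 1 was higher and 1 lower in DM (8.33% each), near the 7.8% and 9.07% of all rows. In DM+Met against CM, 2 were higher and 1 lower (16.7% and 8.33%), where 6.92% and 8.36% of all rows were. Txnip, which limits glucose uptake, rose from 1009 and 693 CM reads to 3665 and 3887 DM reads and 3275 and 3833 DM+Met reads (log2 changes 1.82 and 1.55, adjusted p = 0.000357 and 0.000518). Bnip3, a mitophagy receptor, changed by -1.12 and -1.74 (adjusted p = 0.0032 and 0.000271). Eif4ebp3, a relative of Eif4ebp1, was higher in DM+Met (log2 change 1.60, adjusted p = 0.0117), where Eif4ebp1 was lower.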

How the data were processed

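CD4 T cells were sequenced with a QuantSeq 3′-end kit from 500 ng of RNA, with 2 numbered files per medium. The labels do not say what these files are. The study describes 2 independent samples per medium, so they were taken as replicate libraries, and p-values measure only the spread between them. The authors deposited log2 values, each the log2 of TMM-scaled CPM plus 1 given to 3 decimals. The submitters' processing notes name Bowtie2, bedtools and build mm10. The annotation, counting settings and treatment of strand are not given in the sources used here. Reads were recovered from the equal steps of the values in each library, and at least 99.89% of values up to 300 reads lay within 0.1 of a whole read. Depth was 8504862 to 12377245 reads per library.

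Rows with at least 2 libraries at 0.951 CPM (10 reads at the median scaled depth) and 15 reads in all were tested. limma 3.58.1 in R 4.3.3 fitted 6 libraries together with an intensity trend and 6.87 prior degrees of freedom, with Benjamini-Hochberg adjustment over 12770 rows and a threshold of 0.05. The fit was also run on simulated reads with the same dispersion for all genes, to check the size of its estimates. The simulated spread was not matched to these libraries, so this was no check of the calls. Every adjusted p comes from this fit unless another setting is named. Loci are from GENCODE vM21 (GRCm38) and promoters from RefSeq (GRCm38.p6). The members, lists, filter and tests were chosen with earlier results of these data known. Named with reads are members called in any comparison and Atf4, Ddit3, Atf3, Asns, Chac1, Trib3, Sesn2, Ppp1r15a, Cebpb, Eif2ak4 and Eif2ak3. From each other list the 2 called genes with the largest change per comparison are named, with Psat1, Slc7a11, Hspa5 and Cdkn1a. Alternatives were other scalings, pseudocounts, filters, priors and models, only the media compared, a replicate block, and each library left out.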

Additional observations from a re-analysis of the deposited data

How the results depend on the processing

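With 2 libraries a medium, calls depend on the spread that limma shares across genes. No change of a called member reversed sign in any setting. Without the intensity trend, DM against CM gave 1329 genes in place of 2154, 3 members in place of 8 and 10 genes of the other lists in place of 27, and DM+Met against CM gave 944 in place of 1952, 3 in place of 8 and 7 in place of 26. With only the DM and CM libraries the first 3 counts were 795, 5 and 12. With no filter DM+Met against CM gave 1265. Leaving out each library gave 541 to 1061 genes, 0 to 4 members and 6 to 16 other genes for DM against CM, with 0 members without CM library 2, 1 without CM library 1, 3 without DM library 1 and 4 without DM library 2. For DM+Met against CM it gave 268 to 1622 genes, 1 to 8 members and 4 to 20 other genes, with the 1 without DM+Met library 2. DM+Met against DM gave 7 genes, but 55 (51 higher) and 2 of the other lists with library totals, 13 with a pseudocount of 5, 2 with no filter, 27 with 10 reads in every library, 21 by limma-voom, 14 with a robust prior, and 0 without the trend, with 2 media or with any library left out. Members called there were 0 in every setting. Library totals moved the members' median from 0.14 to 0.49 (DM+Met against DM) and from -0.29 to 0.07 (DM+Met against CM), and the all-gene median from 0.009 to 0.34 and from 0.061 to 0.41. Leaving out a library moved the members' median between -0.025 and 0.3 in the first. Library totals without Rn45s raised the share of calls that were higher in DM against CM from 46.2% to 59.6%, and in DM+Met against CM from 45.3% to 57.4%, with 8 members called in each. There Got1 was lost and Slc6a9 gained in the first, and Asns was lost and Cebpg gained in the second.

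Files with the same number did not deviate together (r of -0.0247, 0.00476 and -0.0303 for the pairs of media), so the numbers were not taken to pair libraries. With the file number as a replicate block, which left 2 residual degrees of freedom, DM against CM gave 1947 genes and 8 members, DM+Met against DM gave 7 and 0, and DM+Met against CM gave 1797 and 7, the call of Asns being lost. Genes under about 60 reads, among them Sesn2, Pycr1, Gdf15 and Vldlr, are limited by depth.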
